A study of Mus musculus with 8 samples.

Results

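The 10 genes described here encode the proteins that bind N6-methyladenosine (m6A), the most common internal modification of messenger RNA, and the enzymes that remove it. They were listed by function and matched by symbol to RefSeq: 3 cytoplasmic YTH readers (Ythdf1, Ythdf2, Ythdf3), the YTHDC readers Ythdc1 and Ythdc2, 3 IGF2BP readers (Igf2bp1, Igf2bp2, Igf2bp3) and the erasers Fto and Alkbh5. All 10 were found among 21887 protein-coding genes. Trimethylation of histone H3 at lysine 36 (H3K36me3) was measured over them in mouse embryonic stem cells by ChIP-seq, with 8 libraries: H3K36me3 ChIP and input, each in 2 replicates, from cells labelled Dox + with the genotype Setd2 knockdown and from cells labelled Dox - with the genotype control. Every library came from feeder-free cells that carry a doxycycline-inducible Setd2 knockdown and grew as spheres in serum-free N2B27 medium with 1 µM PD0325901 (a MEK inhibitor), 3 µM CHIR99021 (a GSK3 inhibitor) and 1000 U/ml LIF. Knockdown cells received 1 µg/ml doxycycline for 4 days, and control cells none. The labels give neither the number of clones behind the line nor whether replicates were separate cultures.

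H3K36me3 is laid down over the bodies of transcribed genes by Setd2, which travels with elongating RNA polymerase II. m6A is written onto nascent transcripts by the Mettl3-Mettl14 complex, and Mettl14 is known to bind H3K36me3, which links the histone mark to the RNA mark. Readers then direct methylated transcripts to splicing, export, translation or decay, and erasers demethylate them. What was measured here is the histone mark over the genes of these proteins, not their transcripts, their protein or m6A itself.

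Peaks were called by the authors on merged replicates, which leaves 1 peak table per condition, and there is no replicate spread and no test between conditions. The caller kept 29416169 ChIP tags in knockdown and 36244210 in control, and listed 3040 and 30634 peaks. Setd2, the target of the knockdown, had 0 peaks in knockdown and 11 in control, which describes its chromatin and does not check the loss of its product. All 8 embryonic stem cell marker genes examined held a control peak, with control coverage between 34.1% (Dppa4) and 98.3% (Nanog), and 2 of them, Esrrb and Tfcp2l1, also held a knockdown peak. Of the markers of other lineages, 0 of 5 primitive endoderm, 1 of 5 fibroblast and 2 of 5 neuroectoderm genes held a control peak. None of these lineage markers held a knockdown peak. Among all protein-coding genes 41.2% held a control peak and 4.95% a knockdown peak.

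Nearly every reader and eraser gene carried the mark in control cells, and nearly all of it was no longer called after Setd2 knockdown. In such bulk libraries fewer marked cells and less of the mark per cell cannot be told apart. A peak was assigned to a gene when its midpoint lay between the RefSeq start and end. By this rule 1 of the 10 genes, Igf2bp1, had a knockdown peak, where 4.95% of all protein-coding genes had one. In control 9 of the 10 did, where 41.2% of all genes had one. Long genes have more room for a peak, and among the 10746 genes as long as these (16.6 to 355 kb) the shares were 6.87% in knockdown and 53.9% in control. Of the 9 genes with a control peak 1 kept a peak, 11.1% (exact Clopper-Pearson 95% interval 0.281 to 48.3, counting error only). Of all control-marked genes 10.6% did, so that with all listed peaks the kept share was close to the background. Both counts depended on the peaks admitted: with only the 3040 top-scoring control peaks 1 of the 10 genes had a control peak, where 11.3% of all genes did, and with an FDR of 1% or less none had a knockdown peak, where 1.15% did.

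The covered share, the percent of a gene's length under peaks, gives the same picture in base pairs. Summed over the 10 genes, 2763 bp of 831684 bp lay under knockdown peaks (0.332%) and 137102 bp under control peaks (16.5%). Over all protein-coding genes these shares were 0.259% and 9.37%, and over the 10746 genes of the same length range 0.276% and 11.3%. The median covered share of the 10 genes was 0% in knockdown and 31.5% in control, and the median over all genes was 0% in both. Over the genes of that length range the median was 0% in knockdown and 2.93% in control. In control 4 of the 10 genes, Ythdf1, Ythdf2, Igf2bp1 and Alkbh5, were covered over at least 50% of their length. Of all genes 17.0% were, and of the 10746 genes of that length range 1484 were.

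**Figure D1:**
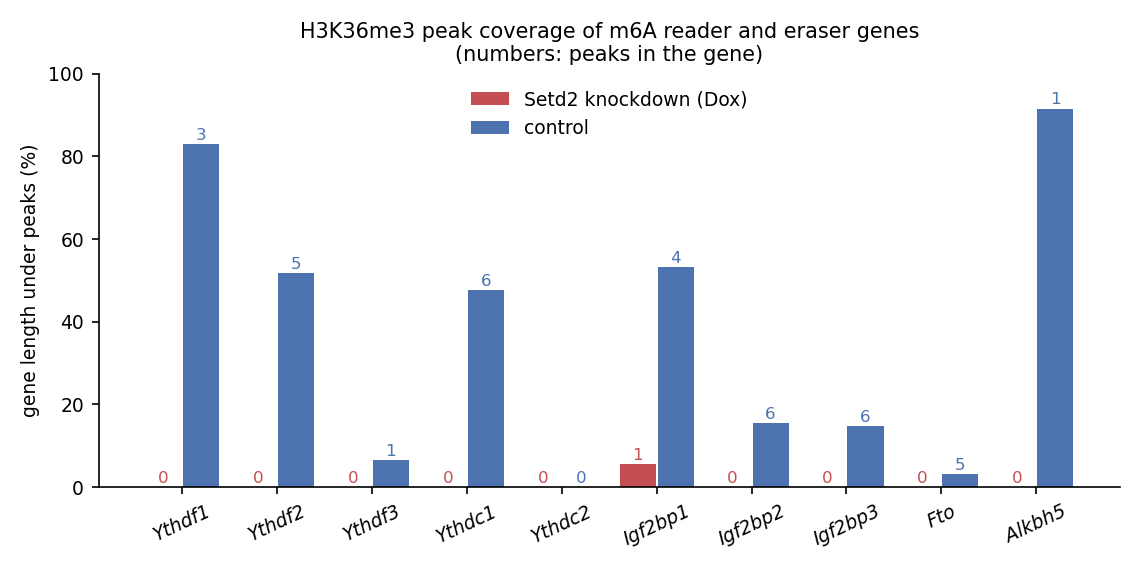
Percent of each gene's length under H3K36me3 peaks in Setd2 knockdown (left bar) and control (right bar), with the number of peaks in the gene above each bar. Igf2bp1 has the only knockdown peak (5.66%), and the control shares run from 0% at Ythdc2 to 91.6% at Alkbh5.

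The cytoplasmic YTH readers bind m6A in mature transcripts and are known for promoting their decay and translation. All 3 had control peaks and none had a knockdown peak, but their control coverage differed widely. Ythdf1 (chromosome 2, 180904377 to 180920936 of mm10) was covered over 0% in knockdown and 82.9% in control, where 3 peaks held 795 tags (95% Poisson interval 741 to 852). Ythdf2 (chromosome 4, 132184916 to 132212256), the reader that recruits the CCR4-NOT deadenylase, was covered over 0% in knockdown and 51.7% in control, under 5 peaks with 782 tags (728 to 839). Ythdf3 (chromosome 3, 16183148 to 16217037) had 0% in knockdown and 6.61% in control, under a single peak of 2239 bp with 81 tags (64.3 to 101). Per kb of gene, tags under control peaks came to 46.5 at Ythdf1, 26.2 at Ythdf2 and 2.39 at Ythdf3. Ythdf3 thus lay far below its paralogs. The Poisson interval of its tag total does not overlap theirs, but covers counting error only and no replicate spread. Its single peak held 36.2 tags per kb, and only 1.15% of the control list was sparser.

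Ythdc1 is the nuclear m6A reader of splicing and export, and Ythdc2 an RNA helicase known for its role in meiosis. Ythdc1 (chromosome 5, 86803980 to 86836659) was covered over 0% in knockdown and 47.6% in control, under 6 peaks with 740 tags (688 to 795). Ythdc2 (chromosome 18, 44827730 to 44889720) had no peak in knockdown and none in control. It was the only gene of the 10 without one. The tables list peaks above the caller's threshold, so that no level can be given below it.

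The IGF2BP proteins bind m6A-containing transcripts and stabilise them, and are known as oncofetal RNA-binding proteins. Igf2bp1 (chromosome 11, 95957163 to 96005944) was covered over 5.66% in knockdown, by 1 peak with 113 tags (93.1 to 136), and over 53.1% in control, by 4 peaks with 1669 tags (1590 to 1751). Igf2bp2 (chromosome 16, 22059009 to 22163299) was covered over 0% in knockdown and 15.5% in control, under 6 peaks with 852 tags (796 to 911). Igf2bp3 (chromosome 6, 49085218 to 49215469) was covered over 0% in knockdown and 14.7% in control, also under 6 peaks, with 1076 tags (1013 to 1142). In base pairs the 3 genes were closer to each other than in shares, with 25924, 16126 and 19134 bp under control peaks. Igf2bp3 shares 53.9 kb, 41.4% of its span, with Malsu1, a mitochondrial ribosome assembly gene, and 3 of its 6 control peaks touch that stretch. To which of the 2 genes those peaks belong cannot be told apart. The rest of Igf2bp3 was covered over 0% in knockdown and 6.77% in control.

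Fto and Alkbh5 are oxygenases of the AlkB type that demethylate RNA. Alkbh5 (chromosome 11, 60537683 to 60558512) had the highest control coverage of the 10 genes: 0% was covered in knockdown and 91.6% in control, by a single peak of 19070 bp with 1085 tags (1021 to 1152). That coverage exceeded the control coverage of 98.8% of all protein-coding genes. Fto (chromosome 8, 91313367 to 91668433), which is 355 kb long, was covered over 0% in knockdown and 3.15% in control, under 5 scattered peaks with 490 tags (448 to 535). Per kb of gene, tags under control peaks were 52.1 at Alkbh5 and 1.38 at Fto. Within peaks the gap was smaller, 56.9 tags per kb (53.6 to 60.4) at Alkbh5 and 43.8 (40.0 to 47.9) at Fto.

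The order of control coverage, Alkbh5, Ythdf1, Igf2bp1, Ythdf2, Ythdc1, Igf2bp2, Igf2bp3, Ythdf3, Fto and Ythdc2, largely followed gene length. Spearman's rho between length and control-covered share was -0.76 over the 10 genes and -0.61 over all 9016 control-marked genes, given as a description, since every point comes from the same libraries. Length is the divisor of the covered share, so that a negative rho is in part built into it. With covered base pairs in place of the share, rho was 0.0061 over the 10 genes and 0.37 over the control-marked genes. The 10 genes include Ythdc2, which has no control peak, while the larger set holds only genes with one. With no replicate values, neighbours in that order such as Igf2bp1 (53.1%) and Ythdf2 (51.7%), or Igf2bp2 (15.5%) and Igf2bp3 (14.7%), cannot be told apart.

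**Figure D2:**
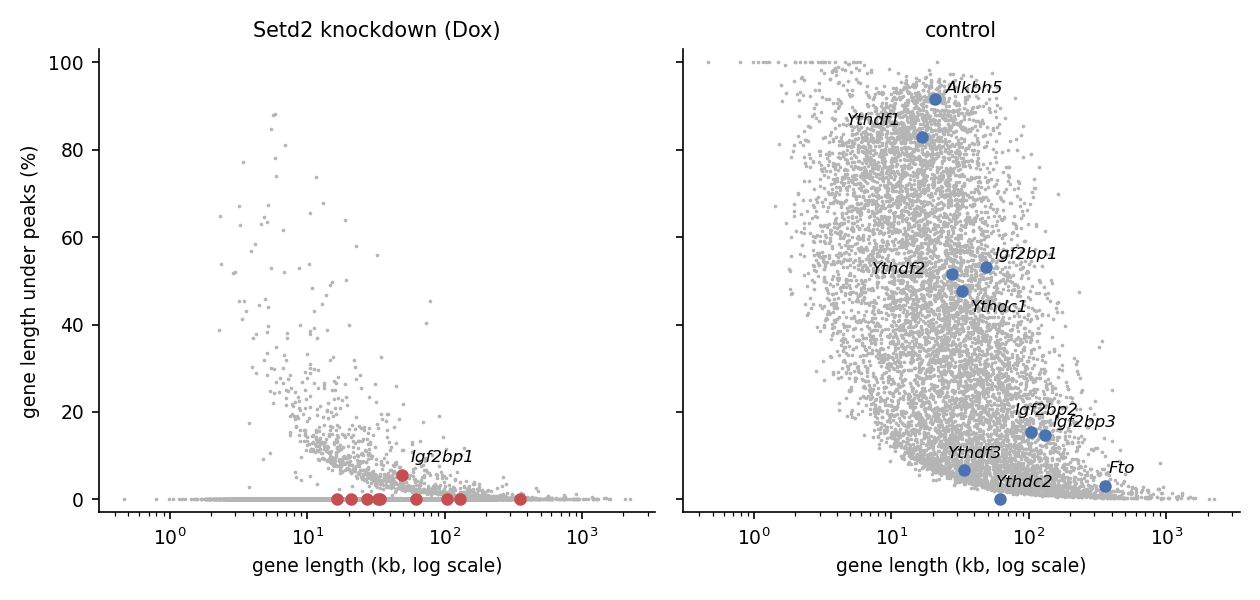
Gene length (kb, log scale) against percent of the gene under peaks, in Setd2 knockdown (left) and control (right). Grey points are the 9016 protein-coding genes with a control peak, and coloured points are the 10 reader and eraser genes. In control the short genes Alkbh5 and Ythdf1 lie near the top and the 355 kb Fto near the bottom, and in knockdown only Igf2bp1 of the 10 lies above 0.

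The mark began downstream of the promoter in every gene whose orientation could be read, as at most control-marked genes. The RefSeq promoter table (GRCm38.p6), with windows from 250 bases before to 50 after the transcript start, holds 7 of the 10 genes. None of the 7 windows had a base under a knockdown or a control peak. Of the windows of all 17492 protein-coding genes listed there 18 were touched in knockdown and 245 in control. Among the listed genes with a control peak, 1.98% of windows were touched in control. The untouched windows of these 7 genes are thus close to the background and do not set them apart. The windows of the 3 genes whose control peaks came closest to the start are printed because they are the unmarked sequence next to a marked body, 5′ to 3′ with each CG dinucleotide in capitals.
Ythdf1, chr2:180920887-180921186, minus strand: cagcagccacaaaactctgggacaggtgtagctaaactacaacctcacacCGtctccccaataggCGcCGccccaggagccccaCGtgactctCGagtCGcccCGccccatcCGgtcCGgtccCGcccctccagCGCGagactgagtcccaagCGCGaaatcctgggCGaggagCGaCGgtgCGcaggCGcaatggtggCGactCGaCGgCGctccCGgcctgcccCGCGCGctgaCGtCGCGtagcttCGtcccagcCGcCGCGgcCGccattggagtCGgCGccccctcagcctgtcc
Ythdf2, chr4:132212207-132212506, minus strand: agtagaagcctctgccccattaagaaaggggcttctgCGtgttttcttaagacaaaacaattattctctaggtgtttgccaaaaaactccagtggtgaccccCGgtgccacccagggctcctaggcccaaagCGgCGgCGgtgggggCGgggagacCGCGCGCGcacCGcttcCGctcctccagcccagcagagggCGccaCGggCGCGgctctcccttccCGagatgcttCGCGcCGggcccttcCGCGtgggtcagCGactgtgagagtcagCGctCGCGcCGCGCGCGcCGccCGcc
Alkbh5, chr11:60537433-60537732, plus strand: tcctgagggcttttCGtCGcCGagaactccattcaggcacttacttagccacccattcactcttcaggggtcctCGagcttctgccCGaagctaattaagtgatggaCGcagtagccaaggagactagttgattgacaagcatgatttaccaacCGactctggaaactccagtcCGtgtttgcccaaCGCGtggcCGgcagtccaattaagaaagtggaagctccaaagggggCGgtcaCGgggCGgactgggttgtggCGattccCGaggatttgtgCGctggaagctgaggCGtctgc

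These windows hold 37, 32 and 18 CG dinucleotides (CG reads the same on both strands). The 7 windows ranged between 18 and 47, all above the median of 13 over all protein-coding windows, of which 94.8% hold at least 1 CG. In control the first covered base lay 1104 bp after the start of Alkbh5, 1165 bp after that of Ythdf2 and 1574 bp after that of Ythdf1. These 3 distances lie below the lower quartile of all oriented control-marked genes, whose median was 4144 bp (quartiles 1680 and 12972). At the other 4 genes the mark began much further in, after 9.55 kb at Igf2bp3, 11.1 kb at Ythdc1, 47.6 kb at Fto and 78.6 kb at Igf2bp2.

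**Figure D3:**
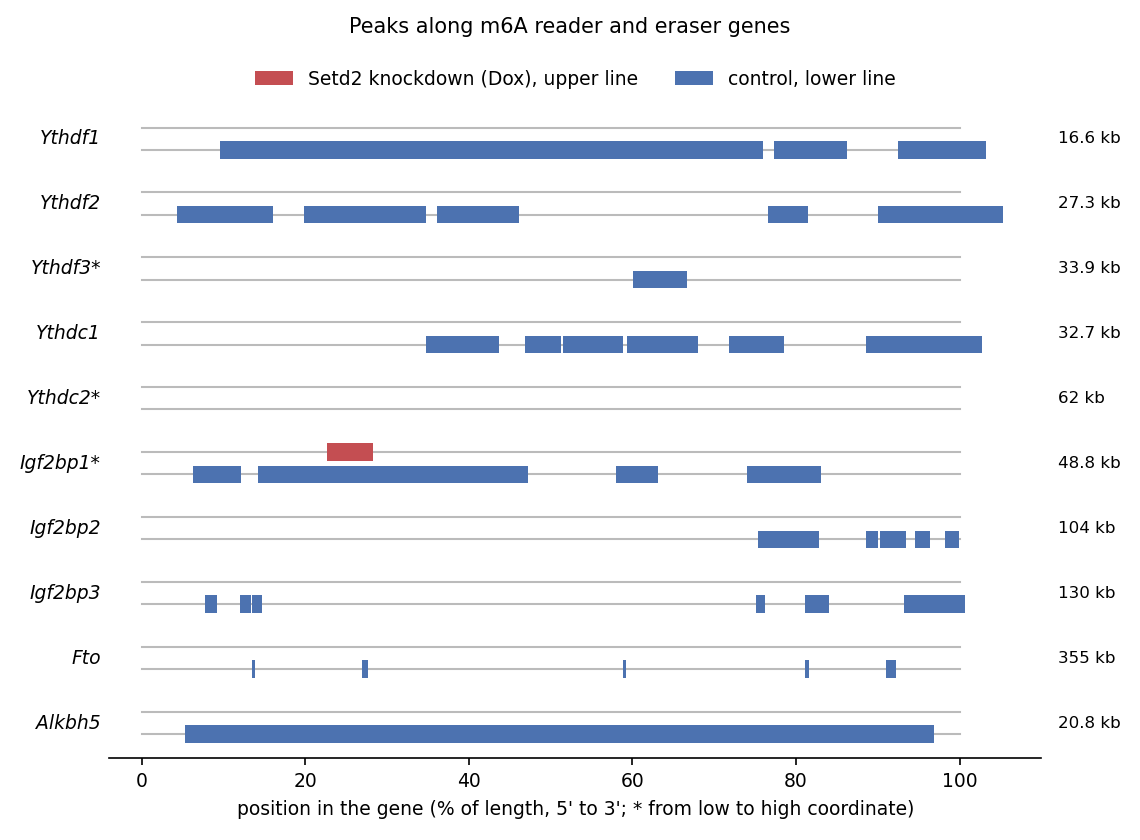
Peaks along each gene as percent of its length, with Setd2 knockdown on the upper and control on the lower line of each pair. Genes run 5′ to 3′, or from low to high coordinate where marked with an asterisk. Control peaks fill most of Alkbh5 and Ythdf1, lie near the 3′ end of Igf2bp2 and are scattered over Fto, and the only knockdown peak lies inside the longest control peak of Igf2bp1.

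Where in the gene body the control mark lay differed between these genes. Cut into 5 equal parts from the 5′ end, Ythdf1 was covered over 52.5%, 100%, 100%, 93.3% and 68.8% in control, and Alkbh5 over 73.5%, 100%, 100%, 100% and 84.3%. Both were thus marked in every part, least in the first, where the stretch next to the start lay outside peaks. Ythdf2 had its highest share, 93.6%, in the second part and its lowest, 17.0%, in the fourth. Ythdc1 had 0% in the first part and its highest share, 80.6%, in the third. Igf2bp2 had 0% in the first 3 parts, 23.0% in the fourth and 54.3% in the last, and its longest uncovered stretch measured 78.6 kb. Over the 6827 oriented control-marked genes of 5 kb or longer the mean share rose along the gene, 15.5%, 35.1%, 43.6%, 49.5% and 53.8%. Igf2bp2 shares that direction. Igf2bp3 (48.1%, in peaks that also touch Malsu1) and Fto (8.52%) had their highest share in the last part too, without a steady rise. Ythdf1, Ythdf2 and Alkbh5 were already covered over more than 50% in their first part. At the 3′ end, the last control peak ran past the annotated end at Ythdf1 (by 538 bp), Ythdf2 (by 1441 bp), Ythdc1 (by 906 bp) and Igf2bp3 (by 877 bp, in a peak that also touches Malsu1). It stopped 121 bp short at Igf2bp2, 656 bp short at Alkbh5 and 27500 bp short at Fto. Among all oriented control-marked genes 47.6% had a peak past the 3′ end.

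In length and density the peaks of these genes were close to the control list as a whole. The 37 control peaks in these genes had a median length of 2498 bp (1263 to 19070), against 2451 bp in the whole control list. Their median density was 45.7 tags per kb (36.2 to 73.8), against 46.2 in the whole control list, and the authors' fold over background ran between 3.40 and 7.24. Peaks above 10 kb numbered 3, at Ythdf1 (11011 bp), Igf2bp1 (16116 bp) and Alkbh5 (19070 bp). The Alkbh5 peak had a density above 85.1% of the control list, but a caller score of only 134, below the list's median of 137. Ythdf1 had the highest score, 598.

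The only knockdown peak, in Igf2bp1, lay at 95968214 to 95970976 of chromosome 11. It measured 2763 bp, all of it inside the longest control peak of the gene, which spanned 95964073 to 95980188. That control peak was the densest of the 37, with 73.8 tags per kb (69.7 to 78.2), above 98.8% of the control list. Each density was divided by the genome-wide mean of its own library, to set the unequal depth aside. The knockdown peak then stood at 2.60 times and the whole control peak at 3.81 times the mean. The 2 intervals differ in length, so that these are not values of the same bases. Within its own list the knockdown peak was above the median in density, at rank 484 of 3040, with a caller score of 132 and an empirical FDR of 2.09% in the authors' table. The other knockdown coverage of control-marked genes was of like size: the 956 genes with peaks in both lists had a median coverage of 5.84% in knockdown and 47.5% in control, and Igf2bp1 had 5.66% and 53.1%.

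Overlap by a knockdown peak was more frequent among dense control peaks in general. The control list was ranked by density and cut into 10 equal bins. Inside protein-coding genes, 21.7% of the 2824 control peaks in the densest bin were overlapped by a knockdown peak, and 1.64% of those in the other bins. Of the 37 control peaks in the reader and eraser genes 2 fell into the densest bin, the long one of Igf2bp1, which was overlapped, and a 5386 bp peak in Igf2bp2, which was not. Multiplied by the ratio of kept ChIP tags (0.812), the control densities of 20 of the 37 peaks reached the knockdown list's median of 36.7 tags per kb, as did 55.0% of the whole control list. Its 5th percentile of 32.8 was reached by 30 of the 37 and by 84.3% of the control list. The peak of Ythdf3 came to 29.4, where the sparsest knockdown peak had 30.0. The caller's own threshold is not a density, and the part of depth in the loss of peaks was not tested.

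**Figure D4:**
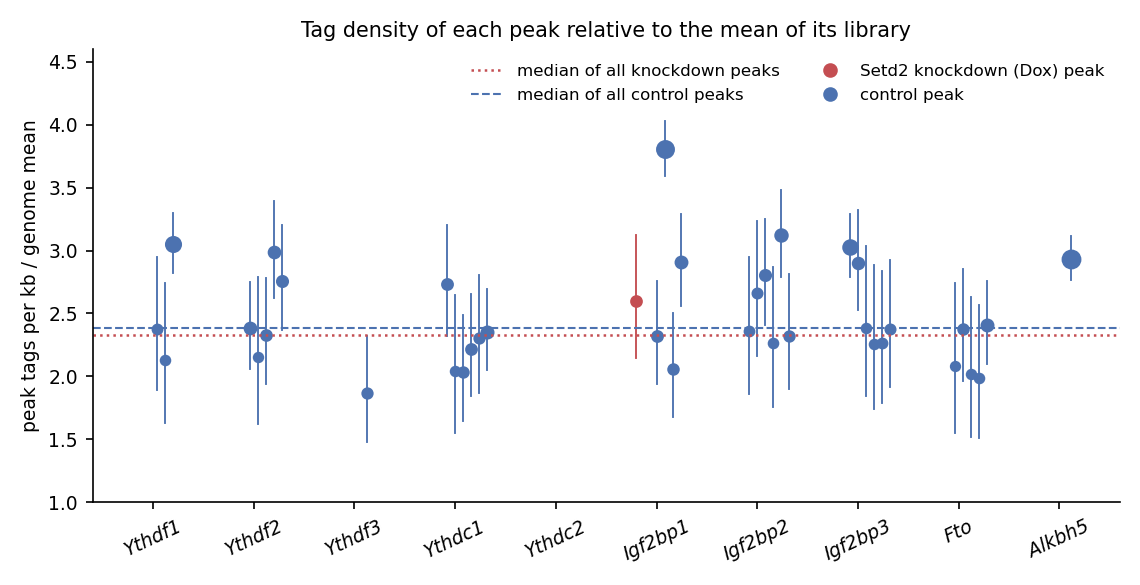
Tags per kb of each peak divided by the genome-wide mean of its library, with exact Poisson 95% intervals as vertical lines (point size grows with peak length; Setd2 knockdown left of control). The knockdown peak of Igf2bp1 stands at 2.60 and the densest control peak of the same gene at 3.81, and the dotted and dashed lines are the medians of all knockdown (2.33) and all control peaks (2.38).

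By the nearest covered shares over the 2 lists, 3 genes resembled Igf2bp1 most among 3044 protein-coding genes of similar length that overlap no other gene. Morc2a lay 2.17 percentage points away (3.75% in knockdown and 52.1% in control), Khdrbs1 2.22 points (4.58% and 51.2%) and Zscan20 2.36 points (8.02% and 53.3%). The likeness rests on 2 values per gene.

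Other genes of the m6A pathway were described in the same way. All 8 genes of the writer complex held a control peak and 0 of 8 a knockdown peak. Over all protein-coding genes these shares were 41.2% and 4.95%. Their median coverage was 0% in knockdown and 42.9% in control. Rbm15b, an adaptor that brings the complex to RNA, had 0% in knockdown and 82.0% in control. Wtap, the regulatory subunit, had 0% and 67.0%, and Cbll1, an associated E3 ligase, 0% and 58.0%. The catalytic subunit gene Mettl3 had 0% in knockdown and 44.0% in control, and Rbm15, a further adaptor, 0% and 41.9%. The scaffold gene Virma had 0% and 18.2%, the zinc finger gene Zc3h13 0% and 18.0%, and Mettl14, the RNA-binding partner of Mettl3, 0% and 14.5%. Writers, readers and erasers together thus had a knockdown peak in Igf2bp1 alone. With 4.95% of all protein-coding genes holding one, so few in lists this small is near the background.

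Among 7 other AlkB genes 1 had a knockdown peak and 5 a control peak by the midpoint rule. Alkbh2 and Alkbh7 had no peak midpoint inside them, but 2704 bp and 1200 bp of them lay under control peaks. Both had 0 bp under knockdown peaks. Alkbh1, a demethylase of DNA and tRNA, was covered over 13.1% in knockdown and 89.4% in control, and Alkbh6 over 0% and 69.4%. Of 6 other RNA methyltransferase genes 0 had a knockdown and 4 a control peak. Pcif1, which writes m6Am next to the cap, had 0% in knockdown and 74.7% in control, although no peak midpoint fell inside it. The same held for Trmt112, at 0% and 22.7%. Mettl16, which methylates U6 RNA, had 0% and 53.0%. Of 8 genes for other proteins that bind m6A or respond to it, 2 had a knockdown and 6 a control peak: Prrc2a, at 26.5% in knockdown and 91.7% in control, and Hnrnpa2b1, at 15.8% and 87.5%, had both. Of 10 partner genes of the readers 3 had a knockdown peak and all a control peak, where 4.95% and 41.2% of all protein-coding genes did. Pabpc1, the poly(A)-binding protein, was covered over 38.8% in knockdown and 86.7% in control, the decay helicase gene Upf1 over 9.80% and 78.6%, and Cnot1, the scaffold of the deadenylase that Ythdf2 recruits, over 1.23% and 35.9%. Srsf3, a splicing factor that works with Ythdc1, had the highest control share of the partners, 91.7%, and 0% in knockdown. These lists are small, and whether they differ from each other was not tested.

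**Figure D5:**
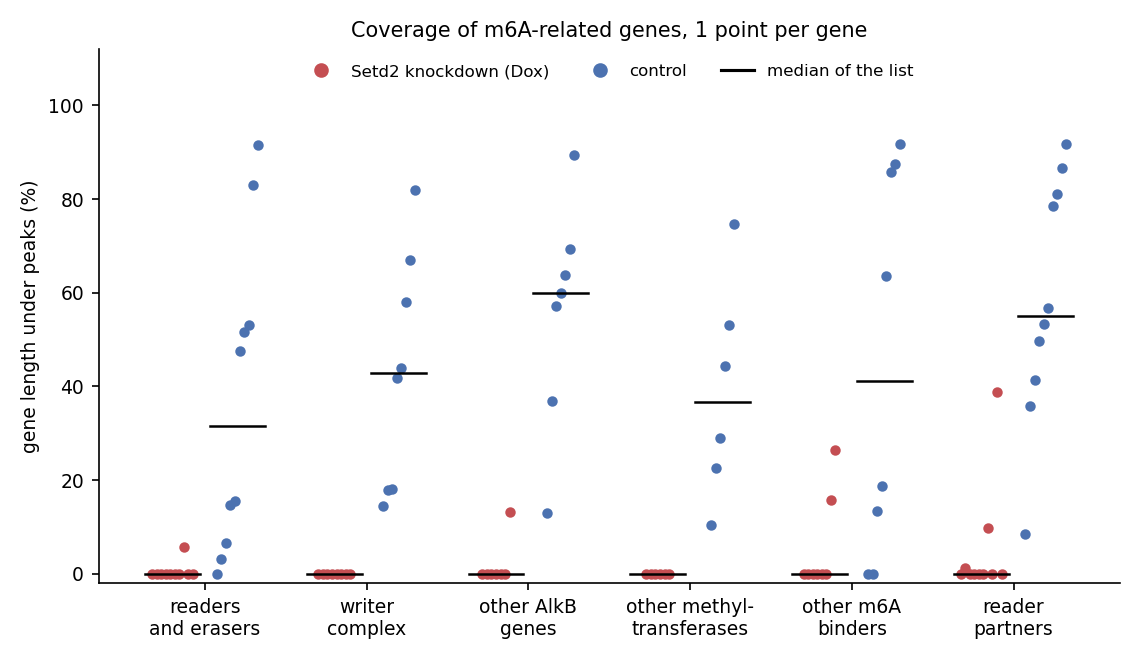
Percent of gene length under peaks for each gene of 6 m6A-related lists, with Setd2 knockdown left of control and a black line at each list's median. The control median is 31.5% for the 10 readers and erasers and 42.9% for the 8 writer genes, and all knockdown medians are 0%.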

How the data were processed

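H3K36me3 ChIP-seq and input libraries, 2 replicates each from Setd2 knockdown and control cells, were grouped by the labels. The submitters' processing notes name Bowtie 1.1.2, FastQC 0.11.5 and the build mm10. Per the file headers, the authors ran MACS 1.4.2 on merged replicates against merged inputs with a p cutoff of 1e-05, keeping 1 tag per position. The deposited tables give, per peak, the count of tags (not normalized), a score (minus 10 log10 of the p-value of MACS), the ratio of ChIP to local background (fold enrichment) and an empirical FDR in percent. Score, fold and FDR are the authors' own and only describe or filter peaks within a list. The deposited BED files were not used.

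Gene spans came from a RefSeq table of GRCm38.p6, the build of the peaks (mm10), restricted to protein-coding genes of the autosomes and of X and Y. Strand came from the RefSeq promoter table. Covered share, tags per kb (a peak's tags shared out by its part inside the gene) and midpoints were computed in Python 3.11.15 with pandas 2.3.3 and scipy 1.17.1, and the functions were tested on simulated data. Intervals are exact 95% Poisson intervals for tags and Clopper-Pearson intervals for shares, and cover counting error only. Per the file headers, inputs kept 33403964 tags in knockdown and 35134297 in control. Named beside the members are Setd2, all writer genes, from each other m6A-related list the 2 genes with the highest control coverage and every gene with a knockdown peak, and the 3 genes nearest to a member with peaks in both lists. Genes of those lists that were covered in control without a peak midpoint inside them are named too. The members, lists and rules were chosen with earlier results of these data known.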

Additional observations from a re-analysis of the deposited data

How the results depend on the processing

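The members with a peak were recounted under 8 alternatives. In control the count stayed between 7 and 9 under 7 of them, including any overlap in place of the midpoint, spans extended by 1 kb and an FDR of 5% or less. Under those 7 between 34.8% and 44.8% of all protein-coding genes had a control peak. Where a caller score of at least 100 was required, 8 genes held a control peak, where 34.8% of all protein-coding genes did. Ythdf3 lost its only one, and the control-covered length was 7040 bp at Fto, against 11188 bp, and 12541 bp at Igf2bp3, against 19134 bp. Igf2bp1 still held its knockdown peak at that score, where 1.69% of all genes had one and 4.38% of control-marked genes kept one. With at least 10% of the span covered 7 genes counted as marked in control, where 35.6% of all protein-coding genes did. With the control list cut to its 3040 top-scoring peaks, the length of the knockdown list, only Ythdf1 was left: 1 member with a control peak, 0 kept and 11011 bp covered in control. Of all protein-coding genes 11.3% then had a control peak, so that the members were no longer above the background, and 19.4% of those were kept. The 19070 bp peak of Alkbh5, with a score of 134, is not among those 3040. The knockdown peak of Igf2bp1 was lost with an FDR of 1% or less (0 members with a knockdown peak, 0 kept, 0 bp covered, where 1.15% of all genes had a knockdown peak and 2.29% of marked genes were kept) and, at 5.66% of the gene, when at least 10% had to be covered (0 with a knockdown peak, 0 kept, where the shares were 1.71% and 4.52%). Under a reciprocal overlap of 50%, 0 control peaks and 0 knockdown peaks in these genes overlapped. Leaving out the stretch shared with Malsu1, an alternative chosen after seeing the data, left the counts as they were and the control-covered length of Igf2bp3 at 5165 bp, against 19134 bp. No paired analysis was possible because peaks were called on merged replicates and no test was made, and for the same reason no replicate could be left out.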
